A study of Mus musculus with 12 samples.

Results

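The comparison described here sets Tet2 knockout (KO) against wild-type (WT) mouse leukemic cells after 8 h of actinomycin D. Its libraries were picked by the genotype and time in their labels, and they are 4 of the 12 RNA-seq libraries of the series, 2 of each genotype. All came from NRAS/AE9a cells, acute myeloid leukemia (AML) cells named for the NRAS oncogene and for AML1-ETO9a, a splice form of the RUNX1-RUNX1T1 fusion. Both genotypes were grown with stem cell factor, IL-3 and IL-6 under G418 and puromycin, and both received actinomycin D at 5 µg/ml. The other 8 libraries, 2 of each genotype at 0 h and at 4 h under the same dose label, are used only to show how the 8 h difference compares with the earlier ones. The labels name no other line or clone of either genotype and do not say how the knockout was made, so genotype cannot be told apart from whatever else sets the WT cells apart from the KO cells. Nor do they say if the paired libraries are from independent cultures, so a p-value covers just the spread among these libraries, possibly technical.

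TET2 is a dioxygenase that oxidizes 5-methylcytosine in DNA and can act on the same base in RNA, and it is often mutated in myeloid cancers. Actinomycin D binds DNA and stops RNA synthesis, so the RNA found hours later was made before the drug and has not yet been degraded. The level of a transcript at 8 h therefore joins its level before the drug with its loss since then. The title of the series places the work in leukemia stemness and homing.

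The deposited values are transcripts per 1000000 (TPM), the length-corrected share of a gene among the transcripts of a library. Sequencing depth is unknown, since each column sums to about 1000000 whatever its depth. No added RNA standard is named, and every difference below is one of shares. At 8 h, 9093 and 9246 genes reached 1 TPM in the WT libraries and 9227 and 9200 in the KO libraries. The libraries of a genotype correlated across genes with Pearson r of 0.992 in WT and 0.991 in KO on the log2(TPM + 1) scale, against at most 0.968 with a library of any other group. The 10 most abundant genes took 25.6% and 25.5% of all TPM in WT and 16.4% and 16.5% in KO. The myeloid identity genes of the label were present in both genotypes: Ptprc (CD45) stood at 91.2 and 108 TPM in WT and 87.1 and 81.8 in KO, and Spi1, the myeloid factor PU.1, at 45.7 and 49.9 TPM against 34.4 and 36.4. Mpo, the myeloperoxidase of myeloid precursors, was low in all 4 libraries, at 1.90 and 2.07 TPM in WT and 8.50 and 6.67 in KO.

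The knocked-out gene was still read in the KO libraries. Tet2 (chr3:133463679-133545139, minus strand, GRCm38) stood at 5.66 and 6.46 TPM in WT and 4.32 and 4.52 TPM in KO, a log2 difference of -0.38 ± 0.13 (SE, limma adjusted p = 0.0259). The KO libraries lay below the WT libraries without overlap, and the gap was small. The call was lost without WT replicate 2, without KO replicate 1, without KO replicate 2 and in a fit of the 4 libraries alone, with adjusted p up to 0.136. The file gives 1 value per gene, so the loss of single exons could not be checked. At 0 h Tet2 was at 13.1 and 16.0 TPM in WT and 10.2 and 10.2 in KO. At 4 h it was at 10.6 and 10.2 TPM in WT and 6.42 and 5.82 in KO.

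Among 11152 genes tested, 4161 (37.3%) were higher and 1350 (12.1%) lower in KO at 8 h, at a limma adjusted p under 0.05. The median log2 difference over all genes was 0.20, so the whole distribution was shifted towards KO. That shift moves with the scaling: rescaling the libraries by the median ratio of their genes brought the median to 0.0041 and the calls to 2866 (25.7%) higher and 2621 (23.5%) lower. Much of the WT total sat in a few genes. The 15 genes above 10000 TPM in any library at 8 h made up 30.2% and 30.0% of all TPM in WT and 19.7% and 19.8% in KO, and without them the median was 0.062. Gene lists are described by their measured members, meaning those that reached 1 TPM in at least 2 of the 12 libraries. Their counts are read against the background shares and against their counts after median-ratio scaling, which are given wherever they change the picture. Both KO libraries lay above both WT libraries in 50.2% of the genes tested and below them in 20.2%. With a 2-fold limit added, 646 genes (5.79%) were higher and 368 (3.3%) lower.

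Genes far from the bulk lay on both sides. Highest in KO by log2 difference were Car2, the erythroid carbonic anhydrase, and Igfbp7, a secreted protein that binds growth factors. Car2 stood at 2.53 and 1.80 TPM in WT and 40.4 and 41.2 in KO (log2 difference 3.73 ± 0.18, adjusted p = 2.5e-08), and Igfbp7 at 4.70 and 4.56 TPM against 70.8 and 55.1 (3.49 ± 0.13, adjusted p = 2.9e-09). Gzmb, the serine protease granzyme B, stood at 1.37 and 2.43 TPM in WT and 24.0 and 23.6 in KO (3.12). In these 3 genes the KO libraries were many times above both WT libraries, and the same direction was present at 0 h. The other genes among the 12 with the greatest log2 differences were Cox4i2, a subunit isoform of cytochrome c oxidase (3.12), Pglyrp2, a peptidoglycan amidase (2.79), Ptprcap, a partner of CD45 (2.77), Npl, a sialic acid lyase (2.50), Hbb-y, Hbb-b2, Hbb-bt, Itga2b and Angpt1. Hbb-y, an embryonic globin at 0 and 2.06 TPM in WT and 7.52 and 22.5 in KO, rested on uneven libraries and lost its call in 9 of 18 alternatives, among them the fits without WT replicate 1 and without KO replicate 2.

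On the lower side stood genes of interferon response, granules and mast cells. Slfn4, a Schlafen family gene of myeloid cells, was at 44.6 and 49.2 TPM in WT and 2.57 and 2.24 in KO, 19.5-fold lower in KO (log2 difference -3.81 ± 0.10, adjusted p = 3.9e-10). Chil3, a chitinase-like lectin of myeloid cells, was at 289 and 312 TPM against 23.8 and 19.3 (-3.75 ± 0.09, adjusted p = 1.8e-10). Saa3, an acute-phase serum amyloid, was at 1430 and 1060 TPM against 116 and 146 (-3.23 ± 0.18, adjusted p = 7.6e-08). In each of these the groups were far apart relative to the spread within them. Car4, a membrane carbonic anhydrase, was lower by a log2 difference of -3.64, and the mast cell genes Mcpt4, Cma1, Tpsb2 and Fcer1a are described below. A pair of transcripts was listed at 0 in both KO libraries at 8 h. Atp6v0c-ps2, a processed copy of Atp6v0c, stood at 1005 and 1141 TPM in WT, and Rab26os at 18.1 and 15.6 TPM. The parent gene Atp6v0c was at 1840 and 1838 TPM in WT and 1594 and 1576 in KO. Reads of a gene and its near-identical copy can be split between them by the counting, so the values of both copies are uncertain. Rmrp, an RNA of the mitochondrial RNA-processing ribonuclease, varied from 0 to 13.5 TPM in KO against 58.7 and 45.3 in WT, and lost its call in 12 of 18 alternatives, including the fits without WT replicate 1, without WT replicate 2 and without KO replicate 1.

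**Figure D1:**
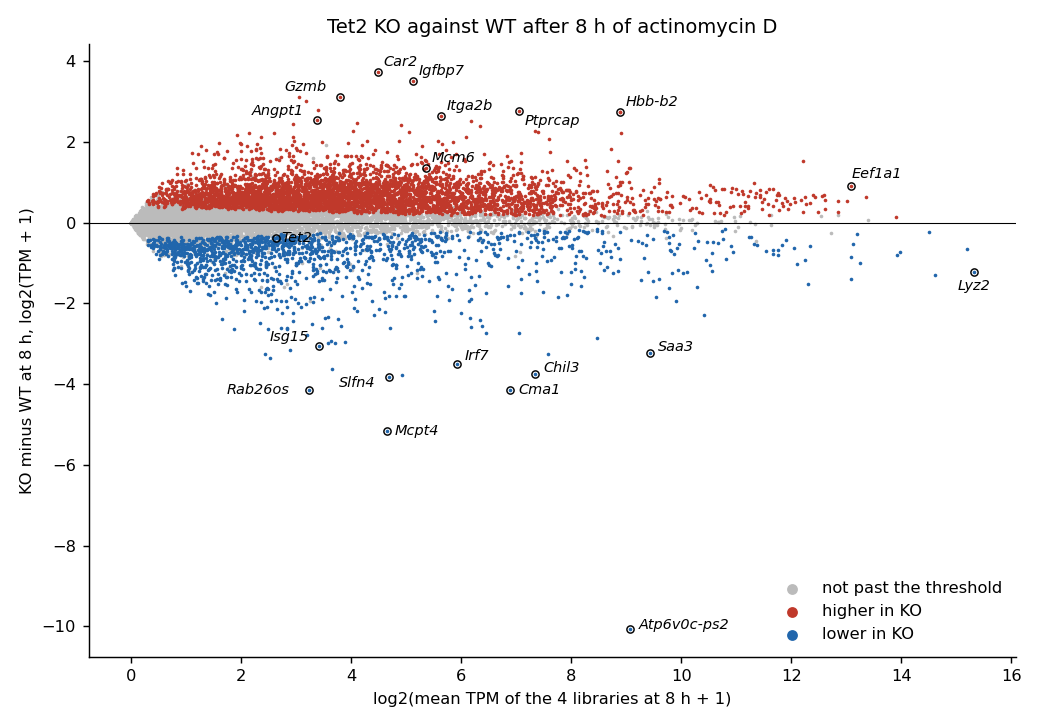
Each point is 1 of the 11152 genes tested, with the log2 of its mean TPM over the 4 libraries at 8 h plus 1 on the x axis and the KO minus WT difference in log2(TPM + 1) on the y axis. Red points were higher (4161) and blue points lower (1350) in KO at an adjusted p under 0.05, and the circled genes are described in the text, from Car2 at 3.73 to Mcpt4 at -5.17 and Atp6v0c-ps2, listed at 0 in KO.

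Type I interferon acts through a transcription factor complex that binds the interferon-stimulated response element (ISRE) in the promoters of its targets. Of 71 measured interferon-stimulated genes (75 listed), 57 (80.3%) were lower and 3 (4.23%) higher in KO at 8 h, against 12.1% and 37.3% of all genes. Their median log2 difference was -1.03, and after median-ratio scaling 66 were lower and 2 higher. Irf7, a master factor of the response, stood at 111 and 109 TPM in WT and 7.39 and 10.5 in KO, 12.3-fold lower (-3.50 ± 0.14, adjusted p = 5.3e-09). Ifitm3, a membrane protein that blocks virus entry, was at 2252 and 2254 TPM against 468 and 454 (-2.29 ± 0.07, adjusted p = 1.1e-09). Oas1a, a synthetase of 2'-5'-linked oligoadenylates, was at 72.9 and 75.2 TPM against 15.8 and 14.8 (-2.20 ± 0.09, adjusted p = 4.1e-09). The WT libraries lay above the KO libraries by a wide margin in all of these genes. Isg15, the ubiquitin-like modifier, was at 22.5 and 12.8 TPM in WT and 0.14 and 3.17 in KO, and its KO libraries differed from each other more than those of the other genes. Oasl2 was 11.4-fold and Usp18, the protease that removes ISG15, 4.20-fold lower in KO. The 3 members that went the other way were Ifitm1 (124 and 124 TPM in WT, 375 and 340 in KO, log2 difference 1.52), Ifi47, an interferon-inducible GTPase (1.04), and Psmb9, an immunoproteasome subunit (0.28). Psmb9 lost its call under median-ratio scaling and without WT replicate 1, WT replicate 2 or KO replicate 2.

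Promoters were read from RefSeq for GRCm38.p6, from 250 bases before to 50 bases after the annotated start. Of the 11152 genes tested, 8686 (77.9%) had an entry. The ISRE core, read as GAAA, any 2 bases and GAAA again on either strand, was in the promoters of 32 of 57 interferon-stimulated genes with an entry (56.1%), against 4.01% of all tested genes, 7.61% of the genes lower in KO at 8 h and 3.27% of those higher. The promoters of Ifit1 (chr19:34640639-34640938, plus strand), Oas1a (chr5:120907476-120907775, minus strand), Ifitm3 (chr7:141010695-141010994, minus strand) and Isg15 (chr4:156200769-156201068, minus strand) are shown because all 4 genes were lower in KO and hold matches that differ in number and place. Not every strongly lower gene held the core. Irf7, Oasl2 and Slfn4 had no match in this window. Capitals mark the matches, merged where they overlap, and each sequence reads 5' to 3' on the strand of the gene.
Ifit1: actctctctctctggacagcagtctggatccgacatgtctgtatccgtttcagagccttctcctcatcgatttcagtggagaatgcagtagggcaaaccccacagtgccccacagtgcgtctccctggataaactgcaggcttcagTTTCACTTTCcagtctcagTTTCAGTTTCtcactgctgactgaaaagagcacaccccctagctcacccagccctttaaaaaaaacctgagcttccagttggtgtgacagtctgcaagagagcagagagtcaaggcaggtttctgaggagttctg
Oas1a: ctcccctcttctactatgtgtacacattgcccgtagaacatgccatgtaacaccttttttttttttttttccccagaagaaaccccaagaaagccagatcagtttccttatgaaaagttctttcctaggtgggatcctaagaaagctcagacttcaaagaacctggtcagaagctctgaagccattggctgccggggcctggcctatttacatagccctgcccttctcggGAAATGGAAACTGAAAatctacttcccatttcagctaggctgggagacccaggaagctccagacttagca
Ifitm3: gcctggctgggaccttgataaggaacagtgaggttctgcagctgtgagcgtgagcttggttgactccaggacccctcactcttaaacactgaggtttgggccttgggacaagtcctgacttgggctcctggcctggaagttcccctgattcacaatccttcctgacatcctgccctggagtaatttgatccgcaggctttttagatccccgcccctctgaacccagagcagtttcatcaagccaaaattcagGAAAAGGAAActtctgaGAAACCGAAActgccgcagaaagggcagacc
Isg15: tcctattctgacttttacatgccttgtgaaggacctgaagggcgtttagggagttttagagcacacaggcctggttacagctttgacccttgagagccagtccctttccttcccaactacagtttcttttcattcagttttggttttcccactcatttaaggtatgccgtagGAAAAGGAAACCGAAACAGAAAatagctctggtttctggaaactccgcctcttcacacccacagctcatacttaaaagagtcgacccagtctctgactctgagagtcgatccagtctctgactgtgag
Ifit1 and Oas1a hold 2 matches each, separate in Ifit1 and overlapping in Oas1a, Ifitm3 holds 2 within the bases after the start, and Isg15 holds 3 that overlap. Ifit1, which encodes a binder of foreign RNA, stood at 2.42 and 2.44 TPM in WT and 0.50 and 0.27 in KO (-1.31 ± 0.19, adjusted p = 0.00011). A match describes the letters of the window and says nothing on whether a factor was bound there.

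**Figure D2:**
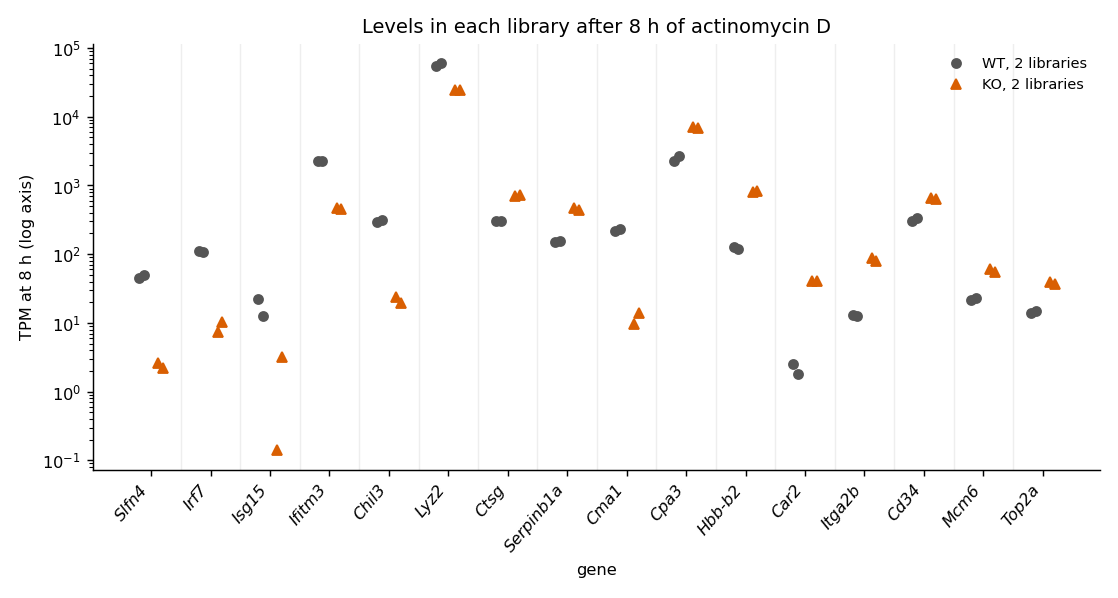
TPM of 16 genes at 8 h on a log axis, with circles for the 2 WT libraries and triangles for the 2 KO libraries. For every gene drawn the libraries of a genotype lie on 1 side of those of the other, from Slfn4 with 44.6 and 49.2 TPM in WT and 2.57 and 2.24 in KO to Hbb-b2 with 127 and 119 in WT and 811 and 836 in KO.

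Neutrophil granules are made in sequence, the azurophil granules first and the secondary and tertiary granules later. The list of later granule genes, which also holds other neutrophil genes such as Cxcr2 and Padi4, was low in KO. Of 26 measured, 21 (80.8%) were lower and 2 higher, with a median of -0.95. Lyz2, lysozyme M and the most abundant transcript at 8 h, was at 55268 and 59978 TPM in WT and 24672 and 24322 in KO (-1.23 ± 0.06, adjusted p = 4.4e-08). Retnlg, a resistin-like secreted protein, was at 352 and 325 TPM against 91.6 and 94.8, and Wfdc21, a protease-inhibitor-like protein, at 1163 and 1159 against 317 and 333. S100a8 and S100a9, the subunits of calprotectin, were 2.45-fold and 1.75-fold lower in KO. Ltf, lactoferrin, was close in both genotypes, at 133 and 147 TPM in WT and 130 and 132 in KO, with an adjusted p of 0.349. The 2 higher members were Cxcr2, the neutrophil chemokine receptor (2.57 and 3.56 TPM in WT, 10.9 and 10.3 in KO), and Padi4, the histone-citrullinating enzyme (0.48 ± 0.09).

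The azurophil list was split. Of 13 measured genes 7 were higher and 5 lower at 8 h, with a median of 0.15 that turned to -0.12 under median-ratio scaling, where the counts were 6 and 6. Serpinb1a, an inhibitor of the granule proteases, was at 148 and 157 TPM in WT and 463 and 439 in KO (1.56 ± 0.06, adjusted p = 3.2e-09). Ctsg, cathepsin G, was at 302 and 306 TPM against 701 and 726 (1.23 ± 0.07, adjusted p = 5.1e-08), and Ms4a3, a membrane gene of granulocyte precursors, at 138 and 139 against 273 and 296. Elane, neutrophil elastase, went the other way with 10.4 and 9.94 TPM in WT and 2.33 and 1.51 in KO (-1.95 ± 0.12, adjusted p = 1.5e-07). Prtn3, proteinase 3, stood at 60.5 and 62.8 TPM against 62.5 and 58.1, with overlapping libraries. Protease genes of the same granule therefore stood on either side of WT.

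Monocyte and macrophage genes were mostly lower in KO, 24 of 31 measured (77.4%) with a median of -0.92. Ctss, a lysosomal protease that processes antigen, was at 1467 and 1570 TPM in WT and 400 and 388 in KO (-1.94 ± 0.07, adjusted p = 1.6e-09). Lgals3, galectin 3, was at 1910 and 1839 TPM against 604 and 638, and Clec7a, the beta-glucan receptor dectin-1, at 138 and 146 against 22.4 and 24.3. The receptor of macrophage colony-stimulating factor, Csf1r, was 3.30-fold lower. The 3 higher members were Emilin2 (0.70 ± 0.07), Ccr2 (0.36 ± 0.10) and Adgre1, which encodes F4/80 (0.27 ± 0.06), and Ccr2 and Adgre1 lost their calls under median-ratio scaling. Ccr2 also lost its call without WT replicate 1 and without KO replicate 1. Genes of MHC class II presentation were lower in 10 of 15 measured (median -1.23) and higher in 1, H2-Ob. H2-Aa was at 109 and 127 TPM in WT and 19.9 and 24.5 in KO, and Cd74, the invariant chain, at 1514 and 1568 against 660 and 654. Lysosomal genes were lower in 37 of 51 measured (72.5%, median -0.40) and in 47 of 51 after median-ratio scaling. Psap, the precursor of the saposins, was at 7300 and 7746 TPM against 2625 and 2586 (-1.53 ± 0.06, adjusted p = 6.6e-09). Among the higher lysosomal genes, Glb1 and Gaa encode glycosidases and were higher by log2 differences of 0.56 and 0.42.

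In the list of chemokines and their receptors 15 of 24 measured genes (62.5%) were lower, with a median of -0.94. The list also holds Cmtm6 and Cmtm7, which encode neither chemokines nor their receptors. Ccl5 was at 605 and 631 TPM in WT and 93.2 and 76.7 in KO, 7.27-fold lower (-2.85 ± 0.12, adjusted p = 5.1e-09). Ccl6 was at 4370 and 4492 TPM against 2534 and 2533, and Ccl2, which attracts monocytes, was 2.13-fold lower. The 5 higher members were Cxcr2, Cmtm7 (1.36 ± 0.07), Ccl3 (0.76 ± 0.09), Ccr2 and Cmtm6 (0.29), the last of which lost its call under median-ratio scaling and without WT replicate 1 or KO replicate 1.

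Mast cell and basophil genes moved in opposite directions in one list, with a median of -0.08. Of 19 measured genes 8 (42.1%) were above WT and 8 (42.1%) below, against 37.3% and 12.1% of all genes. Among the lower genes were the chymases Mcpt4 and Cma1. Mcpt4 was at 40.9 and 54.7 TPM in WT and 0.48 and 0.21 in KO (-5.17 ± 0.17, adjusted p = 1.1e-09), and Cma1 at 219 and 229 against 9.78 and 13.9 (-4.15 ± 0.13, adjusted p = 1.1e-09). Tpsb2, a tryptase, was at 335 and 354 TPM against 36.5 and 34.4. The receptor subunits for IgE were lower too, Fcer1a at 9.93 and 14.7 TPM in WT and 0.36 and 0.59 in KO, and Fcer1g at 1867 and 2092 against 919 and 978. Cpa3, the mast cell carboxypeptidase and the most abundant gene of the list, went the other way with 2260 and 2649 TPM in WT and 7183 and 6973 in KO (1.53 ± 0.08, adjusted p = 4.5e-08). Mcpt8, a basophil protease, was 2.48-fold and Cyp11a1, a steroid-synthesis enzyme, 3.55-fold higher in KO. Cpa3 lifted the summed level of the 24 listed genes in the table, which was 5089 to 5796 TPM in WT and 9079 to 9215 in KO. In bulk RNA, a changed number of cells of a type and a changed amount of RNA per cell cannot be told apart.

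Most of the measured erythroid genes were higher in KO. Of 28 listed genes 14 passed the filter on low values, 10 were higher and 0 lower by limma (0 lower at an unadjusted p under 0.05), the median being 0.91, and 9 were higher after median-ratio scaling. Hbb-b2 and Hbb-bt, adult beta-globin copies with identical values in the file, were at 127 and 119 TPM in WT and 811 and 836 in KO (2.73 ± 0.09, adjusted p = 1.1e-09) and are counted as 2 members of the 10. Tfrc, the transferrin receptor, was at 49.7 and 52.1 TPM against 129 and 130 (1.33 ± 0.07, adjusted p = 5.9e-08). Car1, a carbonic anhydrase of mature red cells, was all the same at 0 in all 4 libraries. The summed level of the list was 352 to 369 TPM in WT and 1890 to 1953 in KO.

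Of 15 measured megakaryocyte and platelet genes 6 (40%) were higher and 2 (13.3%) lower, near the 37.3% and 12.1% of all genes. Median-ratio scaling gave 6 and 5. The summed level of the list was 1017 to 1170 TPM in WT and 892 to 909 in KO. Itga2b, integrin alpha IIb, was at 12.9 and 12.6 TPM in WT and 89.4 and 80.2 in KO (2.64 ± 0.09, adjusted p = 1.6e-09). F2r, a thrombin receptor, was at 9.47 and 11.8 TPM against 46.5 and 44.8, and Itgb3, the partner chain of Itga2b, was 2.16-fold higher. The 2 lower members were Thbs1, thrombospondin 1, at 570 and 666 TPM against 337 and 323, and Pf4 at 203 and 234 against 144 and 179. Pf4 lost its call without WT replicate 2 and without KO replicate 1.

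The series' title names stemness and homing, and lists for both were examined. Of 30 measured stem and progenitor genes 17 (56.7%) were higher and 6 (20%) lower, and the median was 0.46. Median-ratio scaling gave 14 higher and 7 lower. The shares over all genes were 37.3% and 12.1%, or 25.7% and 23.5% after that scaling. Angpt1, a ligand of the TIE2 receptor, was at 2.03 and 2.06 TPM in WT and 18.5 and 15.3 in KO (2.55 ± 0.12, adjusted p = 2.5e-08). Cd34, the progenitor antigen, was at 305 and 338 TPM against 649 and 640 (1.00 ± 0.08, adjusted p = 1.1e-06). Cd48 was 2.59-fold higher, and Erg, an ETS factor of stem cells, stood at 0.88 and 0.90 TPM in WT and 5.02 and 4.15 in KO. Runx1t1, whose human counterpart is the fusion partner in AML1-ETO, led the lower members at 36.8 and 49.9 TPM in WT and 13.4 and 13.2 in KO (-1.62 ± 0.15, adjusted p = 3.0e-06). Whether its reads come from the mouse gene or from the introduced fusion was not tested. Kit, the receptor of stem cell factor, was at 4.48 and 4.81 TPM against 2.80 and 3.28, and lost its call without KO replicate 1. The KO cells thus differed from WT in both directions within this list.

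Homing and adhesion genes were higher in 17 of 39 measured (43.6%) and lower in 11 (28.2%), against 37.3% and 12.1% of all genes. Median-ratio scaling gave 11 higher and 18 lower, so the balance rests on the scaling. After that scaling 25.7% of all genes were higher and 23.5% lower. Cxcr4, the receptor for CXCL12 that holds cells in the marrow, was lower in KO at 8 h, at 5.44 and 7.06 TPM in WT and 2.97 and 2.39 in KO (-0.97 ± 0.14, adjusted p = 0.00011). It had been at 96.9 and 122 TPM in WT and 71.3 and 68.1 in KO at 0 h, so little of it was left in either genotype. Cd44, a hyaluronan receptor, was at 58.1 and 66.0 TPM against 31.2 and 30.2, and Itgam, integrin alpha M, was 1.80-fold lower. Itgb7, integrin beta 7, went the other way at 31.9 and 34.0 TPM in WT and 81.3 and 83.1 in KO (1.29 ± 0.10, adjusted p = 1.1e-06). Tspan13, a tetraspanin, was at 1.38 and 2.95 TPM in WT and 10.5 and 12.5 in KO (2.02 ± 0.21, adjusted p = 6.4e-06). Over the 16 measured tetraspanin genes 6 (37.5%) were higher and 5 (31.2%) lower, against 37.3% and 12.1% of all genes. The KO value of Cd9, at 280 and 273 TPM, was 2.32-fold below WT. After median-ratio scaling the tetraspanin counts were 3 higher and 6 lower.

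**Figure D3:**
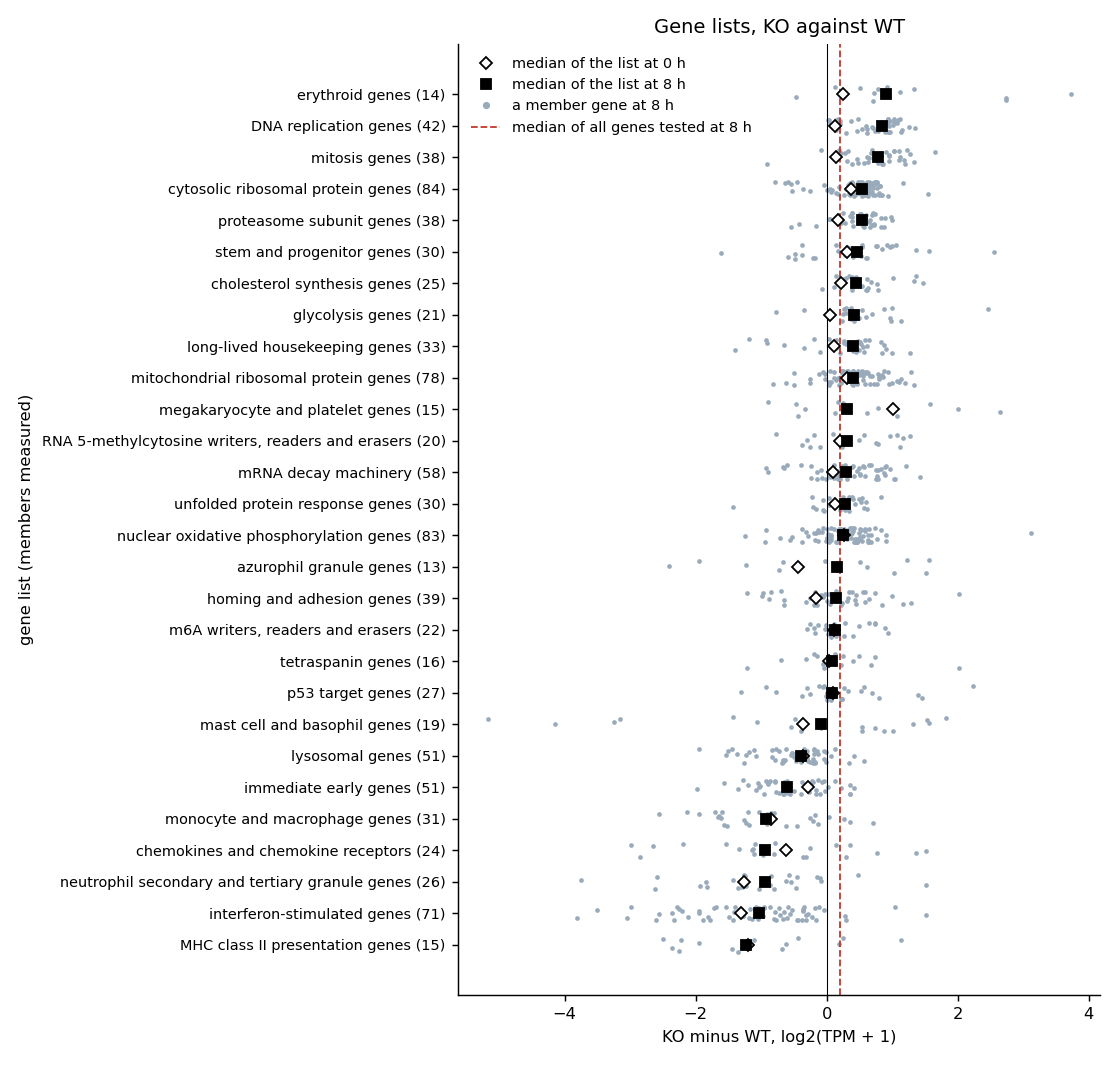
Each row is a gene list with its number of measured members, and the x axis is the KO minus WT difference in log2(TPM + 1). Small points are member genes at 8 h, black squares the list median at 8 h, open diamonds the median at 0 h, and the dashed line the median of all genes at 8 h (0.20); DNA replication moved from 0.13 at 0 h to 0.85 at 8 h, while interferon-stimulated genes were at -1.31 and -1.03.

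Genes of DNA replication and mitosis formed the clearest group that differed at 8 h and barely before the drug. Of 42 measured replication genes 33 (78.6%) were higher in KO at 8 h and 0 lower by limma, and 0 lower at an unadjusted p under 0.05. Their median was 0.85 against 0.20 over all genes, and 29 were higher after median-ratio scaling. The count was 25 at 4 h and 3 at 0 h, where the backgrounds were 24.9% and 14.3% higher. Mcm6, a subunit of the replicative helicase, was at 21.4 and 23.3 TPM in WT and 61.0 and 55.4 in KO at 8 h (1.34 ± 0.09, adjusted p = 1.8e-07). Before the drug it had been at 186 and 212 TPM in WT and 209 and 202 in KO, with overlapping libraries. Pold2, a subunit of DNA polymerase delta, was 2.52-fold, Rrm1, of ribonucleotide reductase, 2.15-fold and Rpa1, a single-strand binding protein, 1.94-fold higher in KO at 8 h. The other helicase subunits Mcm2, Mcm3, Mcm5 and Mcm7, chosen after their values were seen, were 1.93-fold to 2.24-fold higher. In all of these the levels had dropped in both genotypes, and the KO libraries stood above the WT libraries at 8 h.

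Of 38 measured mitosis genes 30 (78.9%) were higher and 1 lower at 8 h (median 0.78), against 4 higher at 0 h. Top2a, topoisomerase II alpha, was at 14.2 and 14.8 TPM in WT and 39.1 and 37.1 in KO (1.34 ± 0.08, adjusted p = 1.6e-07). Cdc20, an activator of the anaphase-promoting complex, was at 6.15 and 6.45 TPM against 24.0 and 20.2 (1.66 ± 0.11, adjusted p = 2.4e-07). Birc5, survivin, and Ube2c, the E2 enzyme of the same complex, were 2.05-fold and 2.35-fold higher. Pttg1, securin, was the lower member, at 30.4 and 29.7 TPM in WT and 14.9 and 16.3 in KO (-0.91 ± 0.11, adjusted p = 1.8e-05). The difference between the 8 h and 0 h contrasts was past the threshold and higher for 26 of 42 replication genes and 26 of 38 mitosis genes, against 17.3% of all genes, and for 20 of each list after median-ratio scaling, against 8.96%.

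E2F factors drive replication genes, and their site TTTCCCGC, TTTGGCGC or TTTCGCGC was searched on both strands of the same windows. It was in 13 of 33 replication promoters with an entry (39.4%) and 1 of 31 mitosis promoters (3.23%), against 4.35% of all tested genes, 5.21% of those higher and 2.89% of those lower in KO at 8 h. The promoter of Mcm6 (chr1:128359656-128359955, minus strand) is shown for its 3 matches, of which 2 overlap.
Mcm6: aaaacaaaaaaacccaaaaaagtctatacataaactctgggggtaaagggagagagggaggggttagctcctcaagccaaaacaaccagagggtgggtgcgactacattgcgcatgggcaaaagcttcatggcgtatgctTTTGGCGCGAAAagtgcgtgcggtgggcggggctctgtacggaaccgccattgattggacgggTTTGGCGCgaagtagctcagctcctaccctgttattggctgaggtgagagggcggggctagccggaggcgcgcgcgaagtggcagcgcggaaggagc

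**Figure D4:**
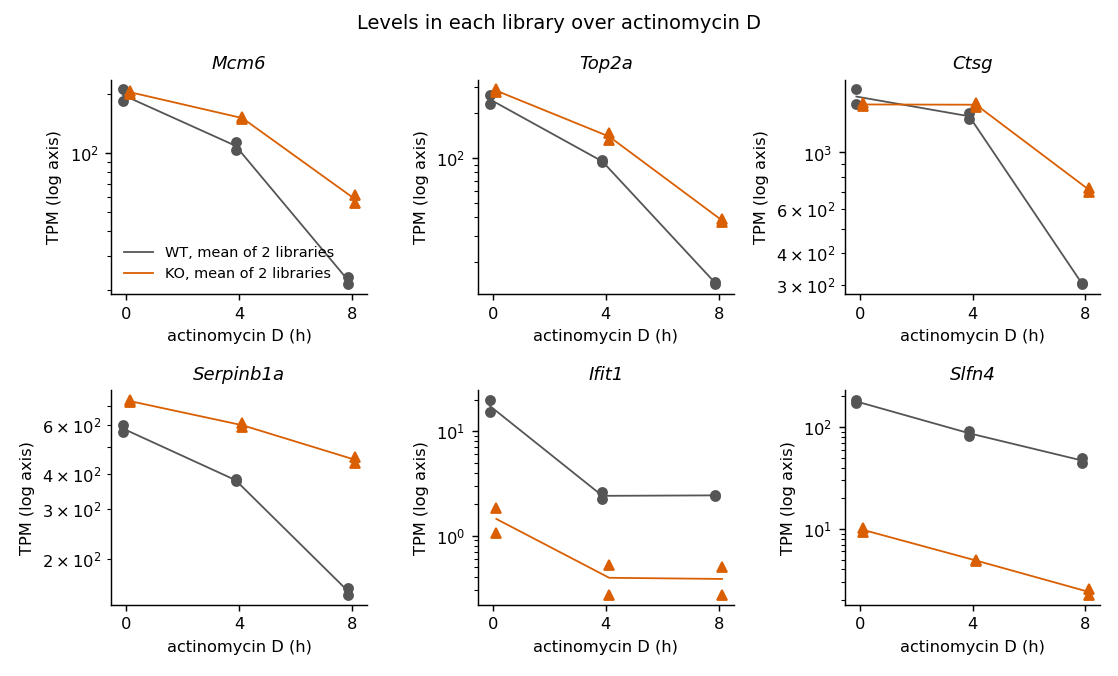
TPM of 6 genes on a log axis over hours of actinomycin D, with circles for WT libraries, triangles for KO libraries and lines through the mean of the 2 libraries. Mcm6, Top2a, Ctsg and Serpinb1a separate between the genotypes by 8 h, while Ifit1 and Slfn4 are lower in KO at 0, 4 and 8 h.

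Genes that act on RNA were examined since TET2 can act on RNA. Of 20 measured writers, readers and erasers of RNA 5-methylcytosine 9 (45%) were higher and 1, Tet2, lower at 8 h. This was near the 37.3% higher over all genes, where 12.1% were lower. Median-ratio scaling gave 8 higher and 5 lower. Nsun2, a methyltransferase of the mark, was at 34.8 and 36.0 TPM in WT and 77.3 and 78.1 in KO (1.11 ± 0.07, adjusted p = 1.2e-07). Alyref, an export factor that reads it, was at 16.4 and 15.6 TPM against 39.8 and 40.2 (1.27 ± 0.10, adjusted p = 1.1e-06). Ybx1, a reader that binds cytoplasmic mRNA, was at 918 and 982 TPM against 1604 and 1598 (0.75 ± 0.08, adjusted p = 1.2e-05), and its relative Ybx3 was 2.26-fold higher. All 4 were higher in KO in both libraries. Of 22 measured m6A genes 7 (31.8%) were higher and 0 lower by limma (0 lower at an unadjusted p under 0.05). The shares over all genes were 37.3% and 12.1%. The m6A counts became 5 and 4 after median-ratio scaling.

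The machinery that degrades mRNA was higher in 28 of 58 measured genes (48.3%) and lower in 5, and in 21 and 9 after median-ratio scaling, against 3 higher and 2 lower at 0 h. Subunits of the RNA exosome led: Exosc2 was at 4.32 and 5.43 TPM in WT and 15.8 and 13.7 in KO (1.42 ± 0.12, adjusted p = 1.1e-06), and Exosc8 was 2.52-fold higher. The 5 lower genes were Btg1, Btg2, Tob1, Zfp36 and Zfp36l1, which encode adaptors that recruit deadenylation to mRNA, with log2 differences from -0.93 to -0.61. Zfp36, tristetraprolin, was at 36.2 and 40.4 TPM in WT and 24.8 and 24.7 in KO. Transcripts of these adaptors are known to be short-lived, and whether this bears on their lower level was not tested. Immediate early genes, a class with the same feature, were lower in 31 of 51 measured (60.8%, median -0.60) and higher in 1, Pim1, which lost its call under median-ratio scaling and without WT replicate 1 or KO replicate 1. Nfkbia, the inhibitor of NF-kappaB, was at 7.80 and 8.00 TPM in WT and 1.88 and 2.16 in KO (-1.56 ± 0.13, adjusted p = 1.2e-06). Junb was at 57.8 and 54.8 TPM against 33.0 and 31.3, and Id2 at 12.8 and 14.5 against 6.25 and 5.86. At 0 h 19 of these genes were lower and 9 higher, and at 4 h 38 were lower.

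Genes of protein synthesis and turnover were mostly higher in KO on the deposited TPM. Over all genes 37.3% were higher and 12.1% lower, or 25.7% and 23.5% after median-ratio scaling. Cytosolic ribosomal protein genes were higher in 67 of 84 measured (79.8%, median 0.54) and in 45 after median-ratio scaling, and 76 were already higher at 0 h. Rpl3 was at 983 and 1028 TPM in WT and 1939 and 1905 in KO (0.93 ± 0.06, adjusted p = 1.6e-07). The 5 lower members were Rps29, Rps21, Rpl38, Rpl37a and Rpl3l. Each lost its call without 1 or more single libraries, all of them without KO replicate 1 and without WT replicate 1, with adjusted p up to 0.195. Proteasome subunits were higher in 30 of 38 measured (78.9%) against 9 at 0 h, as in Psmc1, an ATPase of the regulatory particle, at 35.4 and 39.5 TPM in WT and 70.3 and 69.4 in KO. Mitochondrial ribosomal proteins were higher in 48 and lower in 4 of 78, and in 25 and 6 after median-ratio scaling. Oxidative phosphorylation genes of the nucleus numbered 44 higher and 7 lower of 83, and 20 and 15 after median-ratio scaling, so that their direction rests on the scaling.

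Metabolic genes showed the same side. Cholesterol synthesis genes were higher in 18 of 25 measured (72%) and lower in 0 by limma (0 at an unadjusted p under 0.05), and in 11 and 1 after median-ratio scaling. Fdps, farnesyl diphosphate synthase, was lower in KO at 0 h, at 252 and 265 TPM in WT and 190 and 187 in KO, and higher at 8 h, at 74.8 and 73.4 against 112 and 117. Glycolysis genes were higher in 18 of 21 measured (85.7%) and lower in 2, Aldoc and Slc2a1, and in 10 and 3 after median-ratio scaling. Aldoc lost its call without KO replicate 1, with an adjusted p of 0.0503. Slc2a3, the glucose transporter GLUT3, was at 4.43 and 4.25 TPM in WT and 28.2 and 28.3 in KO, 6.51-fold higher (2.45 ± 0.10, adjusted p = 5.2e-09), while Slc2a1, which encodes GLUT1, was 1.85-fold lower. Unfolded protein response genes were higher in 19 of 30 and lower in 1, Ddit3, which encodes the stress factor CHOP, and in 9 and 6 after median-ratio scaling. Under that scaling the median of this list was 0.0077, near the 0.0041 of all genes. Of 27 measured p53 targets 8 (29.6%) were higher and 3 (11.1%) lower, against 37.3% and 12.1% of all genes. Median-ratio scaling gave 7 and 8 for the p53 targets. Perp was at 54.6 and 62.1 TPM against 272 and 282, and Trp53 itself at 21.0 and 22.4 against 61.3 and 60.5 (1.45 ± 0.10, adjusted p = 4.1e-07). Among 33 long-lived housekeeping genes 22 were above WT and 7 below it, and in 17 and 9 after median-ratio scaling. Zfp zinc finger genes were called less often than all genes, with 26 (9.77%) higher and 17 (6.39%) lower of 266, against 37.3% and 12.1%. Their median was 0.025 against 0.20 over all genes, and median-ratio scaling gave 18 higher and 38 lower. The 266 genes together summed to only 485 to 576 TPM in a library at 8 h, and log2(TPM + 1) understates the change of low genes. The part of low levels in the few calls was not tested.

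Markers of cells from outside the myeloid lineage were mostly low or listed at 0. Of 18 T and NK cell markers, Cd3d, Cd8a and others, 7 in all, were at 0 in all 4 libraries, and their summed level was 17.1 to 18.8 TPM in WT and 14.1 to 16.6 in KO. Nkg7, a cytotoxic granule gene, was higher (1.93 ± 0.28) and Il7r lower (-1.84 ± 0.18) in KO. Of 13 B cell markers 8, including Cd79a, were at 0, the sum was 1.51 to 2.43 TPM in WT and 0.67 to 0.78 in KO, and Blnk was lower. Stromal and endothelial markers summed to 107 to 126 TPM in WT and 213 to 225 in KO, with Col1a2 and Cxcl12 at 0. Of the 7 measured, 4 were higher, namely Thy1, Pecam1, Eng and Pdgfrb, and Fn1 was lower; median-ratio scaling gave 4 higher and 3 lower. Pecam1 carried most of that sum, at 57.6 and 72.5 TPM against 142 and 151, and blood cells express it too. The part of these genes in the results above was not tested.

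The 8 h difference was then set beside the difference before the drug. The contrasts at 8 h and at 0 h share no library, and over the 11152 genes they correlated with Pearson r of 0.681, and those at 8 h and 4 h of 0.732, as descriptions across genes, which are not independent. Of the 4161 genes higher at 8 h 1266 were also higher at 0 h, which is 30.4% of the 8 h list and 79.5% of the 1593 at 0 h. Of the 1350 genes lower at 8 h 819 were also lower at 0 h, 60.7% of the 8 h list and 64.1% of the 1278 at 0 h. At 0 h 14.3% of the genes were higher and 11.5% lower. Opposite calls at 0 h were held by 32 of the higher and 25 of the lower genes.

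Tested directly, the genotype difference was higher at 8 h than at 0 h for 1929 genes (17.3%) and lower for 293 (2.63%), and after median-ratio scaling for 999 (8.96%) and 879 (7.88%). The count rested partly on the 0 h libraries, since it was 1050 higher and 164 lower without KO 0 h replicate 2, 1166 and 167 without KO 0 h replicate 1, and 1177 higher without WT 0 h replicate 2. Among the greatest were Tmem176a, a membrane protein (2.19 and 2.75 TPM in WT, 10.2 and 13.01 in KO at 8 h, a change of the difference of 1.62 ± 0.30), and Pxylp1, a phosphatase of proteoglycan synthesis (1.53 ± 0.18). Pxylp1 was lower in KO at 0 h, at 24.6 and 24.1 TPM in WT and 16.7 and 14.2 in KO, and higher at 8 h, at 0.80 and 0.68 against 2.10 and 2.43. Ifit1 also counted among them, because its gap in log2 was wider at 0 h (-2.93) than at 8 h (-1.31), and it lost this call with a pseudocount of 0.1. Cox4i2, Oaz1-ps and Mettl26 completed the set of 6, and Cox4i2 and Mettl26 lost the call in 7 and 10 of 22 alternatives. The 6 with the most negative change were Atp6v0c-ps2, Rab26os, Mcpt4 and the histone genes Hist2h3b, Hist1h4h and Hist1h2bj, and the histone genes lost it in 4, 15 and 11 of 22 alternatives. Mcpt4, at 0 TPM in both KO libraries at 0 h, lost this call with a pseudocount of 0.1, where its change was -0.83 (adjusted p = 0.216).

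**Figure D5:**
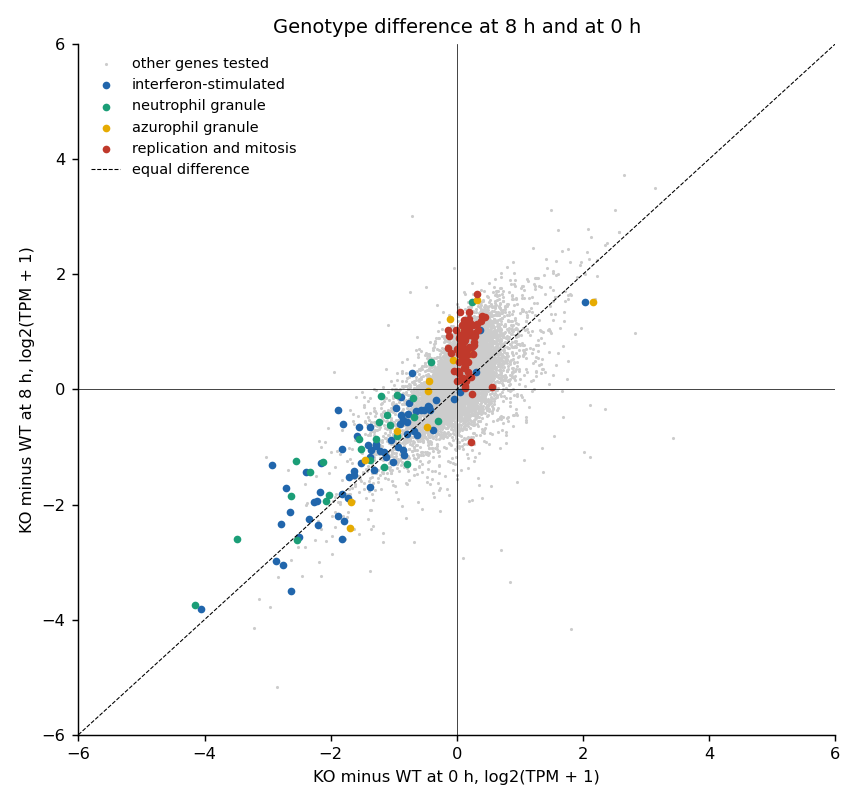
KO minus WT in log2(TPM + 1) at 0 h on the x axis and at 8 h on the y axis for the genes tested, with 1 gene outside the axes, and members of 4 groups of lists in colour. Replication and mitosis genes lie near 0 on the x axis with list medians of 0.85 and 0.78 at 8 h, while most interferon-stimulated and neutrophil granule genes lie below 0 at both times. The dashed line marks an equal difference.

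Beside 4 h, the difference was higher at 8 h for 1195 genes (10.7%) and lower for 192 (1.72%), and after median-ratio scaling for 788 and 534. Without any single library of 4 h (WT replicate 1, WT replicate 2, KO replicate 1 or KO replicate 2) the counts were 600 to 703 higher and 98 to 118 lower, and without KO 8 h replicate 1 there were 730 higher. Camp, the cathelicidin of secondary granules, was among the 3 greatest, at 344 and 346 TPM in WT and 17.6 and 14.9 in KO at 4 h and at 126 and 120 against 17.6 and 21.6 at 8 h. The others were the pseudogenes Oaz1-ps and Rpl14-ps1. The 3 lowest were Atp6v0c-ps2, Rab26os and Cox7a1, a muscle-type subunit of cytochrome c oxidase, which lost the call without WT 4 h replicate 1 and without KO 4 h replicate 2. Ybx1 had a greater difference at 8 h than at 4 h by 0.67 in log2.

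Lists differed in how much of their 8 h difference was there at 0 h. Over all genes the change from 0 h was past the threshold on the higher side in 17.3% and on the lower side in 2.63%. After median-ratio scaling these shares were 8.96% and 7.88%. Interferon-stimulated genes were lower in 63 of 71 at 0 h with a median of -1.31, and the change was past the threshold in 10 higher and 3 lower, or 3 and 13 after median-ratio scaling. Neutrophil granule genes had 12 of 26 past it on the higher side and 0 lower by limma (1 lower at an unadjusted p under 0.05). After median-ratio scaling the counts were 8 and 2. Not all of the 12 were gaps that narrowed. Cxcr2 went from a difference of 0.24 at 0 h to 1.52 at 8 h, and Padi4 from -0.41 to 0.48. Ngp, a neutrophil granule protein, was at 1025 and 1155 TPM in WT and 223 and 210 in KO at 0 h, and at 852 and 939 against 334 and 330 at 8 h. Homing genes had 13 of 39 higher and 0 lower by limma (2 lower at an unadjusted p under 0.05), but 9 and 8 after median-ratio scaling.

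The size of the 8 h difference was also set against how fast a transcript had been lost by 4 h, a measure that uses no 8 h library. The 5608 genes with a mean of at least 5 TPM at 8 h were ordered by their change from 0 to 4 h in both genotypes and divided into 5 parts. That limit does use the 8 h libraries, so a gene lost fast could enter through the genotype in which it was still high. The median change from 0 to 4 h in log2 was -1.36 in the fastest part and 0.25, a rise in share, in the slowest. The median KO minus WT difference at 8 h was 0.22, 0.44, 0.45, 0.40 and 0.24 from the fastest to the slowest loss. The share of genes higher in KO was 41.3% in the fastest part, 62%, 62.2% and 62% in the middle parts and 49% in the slowest, and the share lower was greatest at the ends, 16.8% and 20.6%. Among these genes, chosen by their 8 h level, those higher in KO were thus most frequent in the middle parts on the deposited TPM. Whether this holds under other scalings or without the limit at 8 h was not tested.

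Some RNA classes bear on how the libraries were made. Rpph1, the RNA of ribonuclease P and not polyadenylated, was at 7215 and 4663 TPM in WT and 2704 and 3026 in KO at 8 h, and at 136 to 291 TPM in the 4 libraries at 0 h. Of 63 measured clustered histone genes, a list made after values were seen and whose mRNA mostly lacks a poly(A) tail, 13 were lower and 4 higher in KO at 8 h (median -0.30), against a median of 0.25 at 0 h. Genes with transcripts of up to 600 bases had a median difference of -0.12 (136 genes), against 0.15 to 0.23 in the longer classes. The part of RNA quality or library size selection in the 8 h difference was not tested.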

How the data were processed

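The authors deposited 1 table of TPM per gene, 1 column per library for 12 libraries, with 24589 genes. The unit was taken from the values, since each column sums to 1000000 within 1. Per the labels' protocols, total RNA was extracted with TRIzol and a stranded mRNA kit made the libraries. STAR, RSEM and mm10 are named in the submitters' processing notes; the sources used here give neither their versions nor the annotation or strand setting. Depth per library is unknown.

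Samples were grouped by genotype and time from the labels. Genes reaching 1 TPM in 2 or more of the 12 libraries were tested, 11152 in all, of which 1207 were below 1 TPM in all 4 libraries at 8 h. On log2(TPM + 1), a scale that understates the change of low genes, limma 3.58.1 (R 4.3.3) fitted 1 mean per group. All 12 libraries shared one moderated variance, trended on expression, which left 6 residual degrees of freedom. Differences are on that scale with their SE, folds are ratios of mean TPM, and adjusted p are two-sided limma values with Benjamini-Hochberg adjustment over all genes and a threshold of 0.05. The method was tested on simulated data. The 32 gene lists and the comparison were chosen with earlier results of these data known, and no list was tested as a set. The rule for named genes took Tet2, Cxcr4, Tspan13 and Ybx1, the 12 greatest log2 differences each way at 8 h, 6 each way for the change from 0 h and 3 each way from 4 h, among genes past the threshold with a mean of at least 5 TPM and, at 8 h, no overlap of libraries. Predicted genes named Gm plus a digit, Rik symbols and symbols turned into dates (27 in the table) were left out. Of each list, the 4 members with the smallest p could be named, and other named genes were chosen after their values were seen. Alternatives were scalings by median ratio or by housekeeping genes, pseudocounts of 0.1 and 0.5, other filters, no variance trend, a robust spread, a 2-fold limit, a replicate block, removal of a length trend, fewer libraries and, chosen after seeing the data, rescaling without genes above 10000 TPM and all alternatives for the change from 4 h. Results on some genes are not reported here. Gene positions are from GENCODE M21 (GRCm38) and promoters from RefSeq. Figures were drawn with matplotlib.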

Additional observations from a re-analysis of the deposited data

Results flagged for a closer look

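The genes below had a KO minus WT difference at 8 h that was not the one at 0 h, by a direct limma test of the change between the contrasts. Of the 158 genes named here 93 passed it, 57 with a higher and 36 with a lower difference at 8 h. Over all genes tested 19.9% passed it, 17.3% higher and 2.63% lower. Some of the named genes were picked by this same test and others by their 8 h values. Their count therefore does not measure how common such changes are. Each value below is that change in log2. A positive value can mean a gap that opened above WT or a gap below WT that narrowed. After median-ratio scaling 9 of the genes lost the call, namely Mettl26, Hist1h2bj, Ybx1, Camp, Chil3, Cmtm6, Ifi47, Prtn3 and Retnlg.

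Of the 93 genes, 28 kept the call under every alternative and 59 under every alternative but the 2-fold limit. Without 1 or more single libraries 24 lost it: Camp, Car2, Chil3, Clec7a, Cmtm6, Cox4i2, Ctss, Ddit3, Fth1, Ftl1, Hist1h2bj, Hist1h4h, Hist2h3b, Ifitm1, Itga2b, Mettl26, Mpo, Pf4, Pglyrp2, Runx1t1, Slc2a1, Tob1, Ybx1 and Zfp36. The number lost was 20 without KO 0 h replicate 1, 17 without KO 0 h replicate 2, 16 without KO 8 h replicate 1 and 6 without KO 8 h replicate 2. It was 9 and 10 without WT 0 h replicate 1 or 2, and 9 and 8 without WT 8 h replicate 1 or 2. With a pseudocount of 0.1 the call was lost by 8 genes: Car2, Cma1, Fcer1a, Hist1h4h, Ifit1, Mcpt4, Mpo and Pglyrp2. Pglyrp2 lost it in 13 of 22 alternatives, the replicate block among them.

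In replication the change was 1.29 for Mcm6, 0.94 for Mcm3, 0.90 for Mcm5, 0.89 for Mcm2, 0.86 for Mcm7, 0.99 for Rrm1, 0.81 for Pold2 and 0.80 for Rpa1. In mitosis it was 1.34 for Cdc20, 1.14 for Top2a, 1.02 for Ube2c and 0.83 for Birc5, and -1.13 for Pttg1. Of these genes Pold2 alone had passed the threshold at 0 h, with a difference of 0.44, and Cdc20 had missed it narrowly at 0.32.

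Among granule genes the change was 1.33 for Ctsg, 1.23 for Serpinb1a, 0.92 for Ms4a3, 0.42 for Prtn3 and -0.64 for Mpo. The later granule list, which also holds the receptor gene Cxcr2 and the enzyme gene Padi4, gave 1.29 for Cxcr2 and 0.89 for Padi4. Its other named genes gave 0.90 for Ngp, 0.89 for Camp, 0.86 for Ltf, 0.78 for Retnlg and 0.41 for Chil3. Of the latter, Ngp, Camp, Retnlg and Chil3 were lower in KO at both times, with a smaller gap at 8 h.

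Interferon-stimulated genes changed by 1.62 for Ifit1, 1.00 for Psmb9, 0.67 for Ifi47, -0.50 for Ifitm3, -0.52 for Ifitm1 and -0.88 for Irf7. Mast cell genes changed by 0.60 for Cyp11a1, -0.94 for Cma1, -1.10 for Tpsb2, -1.78 for Fcer1a and -2.33 for Mcpt4. With a pseudocount of 0.1 the values were -0.55 for Cma1, -0.83 for Fcer1a and -0.83 for Mcpt4, with adjusted p of 0.0859, 0.462 and 0.216 by limma. In KO at 0 h Mcpt4 was at 0 TPM in both libraries and Fcer1a at 0.13 and 0 TPM, so these sizes depend on the pseudocount. Genes of the monocyte, antigen presentation and chemokine lists changed by 0.97 for Cmtm7, 0.44 for Cmtm6, -0.32 for Ctss, -0.36 for Ccl6, -0.57 for Lgals3, -0.57 for Clec7a, -0.87 for Ccl5 and -1.05 for H2-Aa.

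Erythroid, platelet, stem cell and vascular genes changed by 1.27 for Thy1, 1.08 for Car2, 1.04 for Erg, 1.02 for Pecam1, 0.67 for Tfrc, 0.51 for Itga2b, -0.70 for Pf4 and -0.82 for Runx1t1. Genes acting on RNA and protein changed by 1.12 for Alyref, 1.06 for Exosc2, 0.92 for Exosc8, 0.71 for Npm1, 0.71 for Eif4a1, 0.68 for Ybx3, 0.66 for Psmc1, 0.62 for Eef1a1, 0.59 for Nsun2, 0.59 for Rpl3 and 0.37 for Ybx1. Among ribosomal protein genes the change was lower for 4 that are named, by -0.83 for Rpl37a, -1.32 for Rps21, -1.37 for Rpl38 and -1.57 for Rps29.

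Metabolic and stress genes changed by 1.25 for Slc2a3, 1.25 for Trp53, 1.07 for Fdps, 0.67 for Perp, -0.30 for Ftl1, -0.34 for Fth1, -0.52 for Prdx1, -0.73 for Slc2a1 and -0.87 for Ddit3. Genes named among the deadenylation adaptors and immediate early genes changed by -0.55 for Zfp36, -0.67 for Junb, -0.71 for Tob1 and -1.16 for Nfkbia. Other named genes changed by 1.62 for Cox4i2, 1.62 for Tmem176a, 1.58 for Oaz1-ps, 1.53 for Mettl26, 1.53 for Pxylp1, 1.17 for Ptprcap and 0.72 for Pglyrp2. The most negative changes were -1.70 for Rpph1, -2.38 for Hist1h2bj, -3.02 for Hist1h4h, -3.48 for Hist2h3b, -5.96 for Rab26os and -7.74 for Atp6v0c-ps2, the last pair listed at 0 in KO at 8 h, so that their values depend on the pseudocount.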

How the results depend on the processing

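Of 192 genes examined at 8 h, 109 kept their call under every alternative. Of 3440 pairs of gene and alternative 173 lost the call and 14 gained it. Among genes called in the main fit 1 pair changed sign: Adgre1, at -0.010 under median-ratio scaling. Sign changes of genes not called there were not counted, as for Prtn3, at -0.033 in the main fit and up to 0.018 in the alternatives. The number of genes lower at 8 h moved most with the scaling, to 2621 under median-ratio scaling, 2251 under housekeeping scaling, 2474 with the length trend removed, which also centres the libraries, and 2042 without the genes above 10000 TPM. A 2-fold limit left 646 higher and 368 lower. Leaving out 1 library gave 3415 to 4029 higher and 1086 to 1261 lower at 8 h. For the change from 0 h the counts, higher and lower, were 999 and 879 under median-ratio scaling, 1217 and 732 with the length trend removed, 567 lower under housekeeping scaling, 166 and 109 with the 2-fold limit, and 1050 to 2475 and 164 to 281 without 1 library, with the fewest calls when either KO library of 0 h was left out. For the change from 4 h they were 788 and 534 under median-ratio scaling, 511 and 612 under housekeeping scaling, 464 lower with the length trend removed, 709 and 125 with no variance trend, 123 lower with no filter, 87 and 59 with the 2-fold limit, and 600 to 1303 and 98 to 193 without 1 library. A library left alone in its group was assumed to vary like the other groups. Beyond the scalings, the fold limit and fewer samples, the cause of these moves was not tested. The replicate numbers did not pair the libraries: WT and KO deviations at 8 h correlated with r of -0.034, and other pairs from -0.083 to 0.051. With the replicate number as a block there were 4092 higher and 1339 lower at 8 h, 1803 and 280 for the change from 0 h, and 1100 and 179 from 4 h. With 2 libraries per group, TPM without depth and no RNA standard, the data show shares only, and counting error could not be given.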

Other observations

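Ftl1, Fth1 and Prdx1, chosen after their values were seen, were lower in KO at 8 h. Ftl1, ferritin light chain, was at 45886 and 45765 TPM in WT and 29341 and 29259 in KO at 8 h (log2 difference -0.65 ± 0.05, adjusted p = 1.5e-06), and Fth1, ferritin heavy chain, at 11853 and 13298 against 4822 and 4694 (-1.40 ± 0.06, adjusted p = 1.4e-08). Prdx1, a peroxidase of the peroxiredoxin family, was at 1978 and 2215 TPM against 918 and 911 (-1.19 ± 0.06, adjusted p = 3.3e-08). The WT libraries lay above the KO libraries in all 3 genes.

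The stefin A cluster, a mouse family of cysteine protease inhibitors looked at after values were seen, held 6 of 7 measured members lower and 1 higher in KO. Its summed level was 78578 and 76494 TPM in WT and 51411 and 51679 in KO. Its members are near-identical copies, so that their single values are uncertain while the sum depends less on how reads were divided among them.

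Among nucleolar and translation genes, Npm1, a ribosome assembly chaperone, was at 225 and 246 TPM in WT and 570 and 566 in KO at 8 h (1.27 ± 0.07, adjusted p = 4.4e-08), and Eif4a1, an RNA helicase of translation initiation, was 2.00-fold higher. Eef1a1, elongation factor 1 alpha, was at 5837 and 6329 TPM against 11495 and 11234. Libraries did not overlap between genotypes in any of these 3 genes.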
